A study of Mus musculus with 45 samples.

Results

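Levels of 10 genes were followed through 45 RNA sequencing libraries of sorted epithelial cells from the small intestine of mouse embryos. The genes are Sat1, Acp5, Ambp, Apcs, Cd47, Cdkn2b, Ctsl, Enpp1, Lgals9 and Prdm16, 10 of the 23366 genes in the count tables. They were chosen by their measured values at E13.5, in days of embryonic development: each was lower in Lgr5-positive than in Lgr5-negative cells without a lineage label, in both of the study's cohorts. That difference is therefore a description of the choice. What the choice did not use is the same gate in labelled cells, the gate at E15.5, the gut part, the stage and the lineage label at E15.5.

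All embryos are called wild type in the sample titles and have a mixed C57BL/6 and CD1 background, and every library holds 500 cells sorted on EpCAM, an adhesion protein of epithelial surfaces. In one cohort a tdTomato lineage label had been given at E9.5 through Axin2, a Wnt target gene, and in the other through Id2, whose protein holds basic helix-loop-helix factors off DNA. The labels name neither the driver allele nor the agent that starts the label. The sorted populations were Lgr5-positive labelled cells (Lgr5+Axin2:tdTomato+ or Lgr5+Id2:tdTomato+), labelled cells named without their Lgr5 state (Axin2:tdTomato+ or Id2:tdTomato+), Lgr5-positive unlabelled cells, and Lgr5-negative unlabelled cells. The labelled population of unstated Lgr5 state may itself contain Lgr5-positive cells. The Axin2 cohort held the posterior and the anterior part of the gut at E15.5 and the gut at E13.5, and the Id2 cohort held the gut at E13.5 only. The Lgr5-positive labelled population of the anterior gut was not analysed here. These make 15 groups of 3 biological replicates, each replicate being a single embryo at E15.5 and a pool of 3 embryos at E13.5.

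Lgr5 is a receptor for R-spondins, secreted proteins that strengthen Wnt signalling, and it marks the stem cells of the adult intestinal crypt. In the embryo, before crypts form, part of the gut epithelium already carries it. The 10 genes share no single pathway. Ambp encodes the precursor of alpha-1-microglobulin and bikunin, and Apcs encodes serum amyloid P, a pentraxin, both of them plasma proteins made mainly by the liver. Ctsl is a cysteine protease of the lysosome, and Acp5 is tartrate-resistant acid phosphatase, best known from osteoclasts and macrophages. Sat1 acetylates spermidine and spermine, the step that commits these polyamines to breakdown or export. Enpp1 is a membrane enzyme that splits extracellular ATP into AMP and pyrophosphate. Cd47 is a surface protein that binds SIRP-alpha on phagocytes and inhibits engulfment. Lgals9 encodes galectin-9, a lectin that binds beta-galactosides. Cdkn2b encodes p15, an inhibitor of the kinases CDK4 and CDK6 that restrains entry into the cell cycle, and Prdm16 is a zinc finger regulator of transcription known in mice for its role in brown fat.

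Axin2 libraries held 16521311 to 19702205 reads assigned to genes and Id2 libraries 26888154 to 37729425, and levels are given as CPM, a gene's reads relative to this total. Epcam was at 1518 to 3369 CPM in every library. Lgr5 itself, among unlabelled cells at E13.5, was at 94.2, 30.5 and 107 CPM where sorted as Lgr5-positive and 5.79, 0.874 and 7.26 CPM where sorted as Lgr5-negative in the Axin2 cohort. The Id2 libraries were closer together, with 57.3, 68.2 and 67.5 CPM on the Lgr5-positive side and 7.36, 37.9 and 35.0 CPM on the Lgr5-negative side, so replicates 2 and 3 of the Lgr5-negative cells still held Lgr5 reads. A set of 14 macrophage markers summed to between 2.64 and 57.2 CPM over the libraries, with Emr1 at 0 in 35 and Ptprc at 0 in 25 of them. Cd68, however, had reads in every library, Laptm5 was at 0 in 7, and Mrc1 and Lyz2 reached 24.0 and 23.2 CPM. Erythroid markers summed to 1452 and 1281 CPM in replicates 1 and 3 of the posterior Lgr5-positive unlabelled cells and to 2.63 CPM in replicate 2. Of the hepatocyte markers, Alb was at 0 in 31 libraries and Ahsg at 0 in 40, while Rbp4, Ttr, Apoa1 and Afp had reads in every library. Bulk libraries cannot separate fewer cells of a type from less RNA per cell, which holds for every difference below.

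The windows around the annotated start sites, from 250 bases before to 50 after, were taken from RefSeq on build GRCm38.p6, where all 10 genes matched by symbol. The 4 printed here are those that hold the letters ATCGAT or ATTGAT, forms bound by ONECUT factors, because Onecut2 is 1 of the proximal gut genes described with the gut parts. All 4 genes lie on the minus strand, at chr4:63154123-63154422 (Ambp), chr1:172895005-172895304 (Apcs), chr9:22135697-22135996 (Acp5, the first of its 3 entries) and chr4:89310983-89311282 (Cdkn2b). Capitals mark every match to the motifs searched, on either strand.
Ambp: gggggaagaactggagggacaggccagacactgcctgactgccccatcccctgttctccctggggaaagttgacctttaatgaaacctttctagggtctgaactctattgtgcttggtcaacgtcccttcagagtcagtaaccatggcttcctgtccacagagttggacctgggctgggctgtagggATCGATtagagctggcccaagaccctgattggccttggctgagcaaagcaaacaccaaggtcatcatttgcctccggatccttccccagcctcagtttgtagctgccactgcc
Apcs: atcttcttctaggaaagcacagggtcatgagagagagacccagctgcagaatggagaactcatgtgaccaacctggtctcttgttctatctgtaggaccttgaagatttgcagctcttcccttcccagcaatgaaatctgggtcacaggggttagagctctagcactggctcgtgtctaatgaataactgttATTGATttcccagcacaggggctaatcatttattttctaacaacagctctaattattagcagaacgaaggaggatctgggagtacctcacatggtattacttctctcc
Acp5: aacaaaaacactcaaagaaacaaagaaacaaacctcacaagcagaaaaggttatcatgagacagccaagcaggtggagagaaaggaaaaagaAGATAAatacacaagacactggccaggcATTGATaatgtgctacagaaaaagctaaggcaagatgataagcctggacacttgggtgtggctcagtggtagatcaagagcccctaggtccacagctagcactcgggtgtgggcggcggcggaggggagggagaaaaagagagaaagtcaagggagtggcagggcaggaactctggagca
Cdkn2b: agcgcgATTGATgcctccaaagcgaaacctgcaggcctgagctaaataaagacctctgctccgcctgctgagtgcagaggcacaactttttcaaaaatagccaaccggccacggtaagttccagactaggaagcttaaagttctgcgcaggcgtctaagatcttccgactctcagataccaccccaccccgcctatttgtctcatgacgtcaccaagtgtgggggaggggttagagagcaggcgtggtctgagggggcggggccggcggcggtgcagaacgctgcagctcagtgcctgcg
ATCGAT or ATTGAT was found in 4 of the 10 windows and in 8.577% of 27025 windows of the same length, 1 per gene. Counted from the start site, the match began at position -63 in Ambp, -58 in Apcs, -130 in Acp5 and -244 in Cdkn2b. Ambp held the first form, ATCGAT, which is its own reverse complement, and the others held the second. Among the 10, Acp5 alone held AGATAA, which GATA factors bind, at position -158, against 11.41% of all windows. GTTAAT (part of the HNF1 site), ATCAAAG (TCF/LEF) and TTTATG (CDX) were in none of the 10 and in 7.201%, 3.722% and 12.15% of all windows. No motif's letters lie within another's, and a match is a run of letters, not an observed binding event.

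At E13.5 the unlabelled cells that decided the choice gave the following levels, as a description. A gene was called where the adjusted p of edgeR's quasi-likelihood test fell below 0.05, over all 15513 genes that passed a filter on low counts. All 10 genes passed that filter. Called lower in Lgr5-positive cells were 0.432% of the genes tested in the Axin2 cohort and 0.329% in the Id2 cohort. 21 genes were called lower in both, and the 10 are among them. Apcs had no read in any of the 3 Lgr5-positive libraries of the Axin2 cohort, against 4.23, 4.99 and 10.2 CPM in the Lgr5-negative ones, at least 117-fold lower taking 3 reads over the group as the floor. The Id2 libraries had Apcs at 0.212, 0.446 and 0.0301 CPM in Lgr5-positive and 10.1, 38.0 and 16.4 CPM in Lgr5-negative libraries. Cdkn2b was near 0 on the Lgr5-positive side, with 0.0536, 0.575 and 0.103 CPM in the Axin2 cohort and 0, 0 and 0.543 CPM in the Id2 cohort in Lgr5-positive cells. Lgr5-negative cells held 16.5, 3.45 and 14.1 CPM of it in the Axin2 and 6.34, 6.44 and 4.70 CPM in the Id2 cohort. The other genes differed by less. Their log2 differences in the Axin2 and the Id2 cohort were -3.27 and -2.82 for Ambp, -2.63 and -2.62 for Acp5, and -2.58 and -2.98 for Prdm16. Lgals9 stood at -2.18 and -2.07, Enpp1 at -1.65 and -1.07, Ctsl at -1.41 and -1.20, and Sat1 at -1.38 and -1.19. Cd47 differed least, at -0.86 and -0.83. The members closest to the threshold, by their adjusted p in the Id2 cohort, were Cdkn2b at 0.0455, Enpp1 at 0.0317 and Sat1 at 0.0286. Just outside it lay Hsd17b2 at 0.0553, Anxa13 at 0.061 and Skil at 0.0748.

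**Figure D1:**
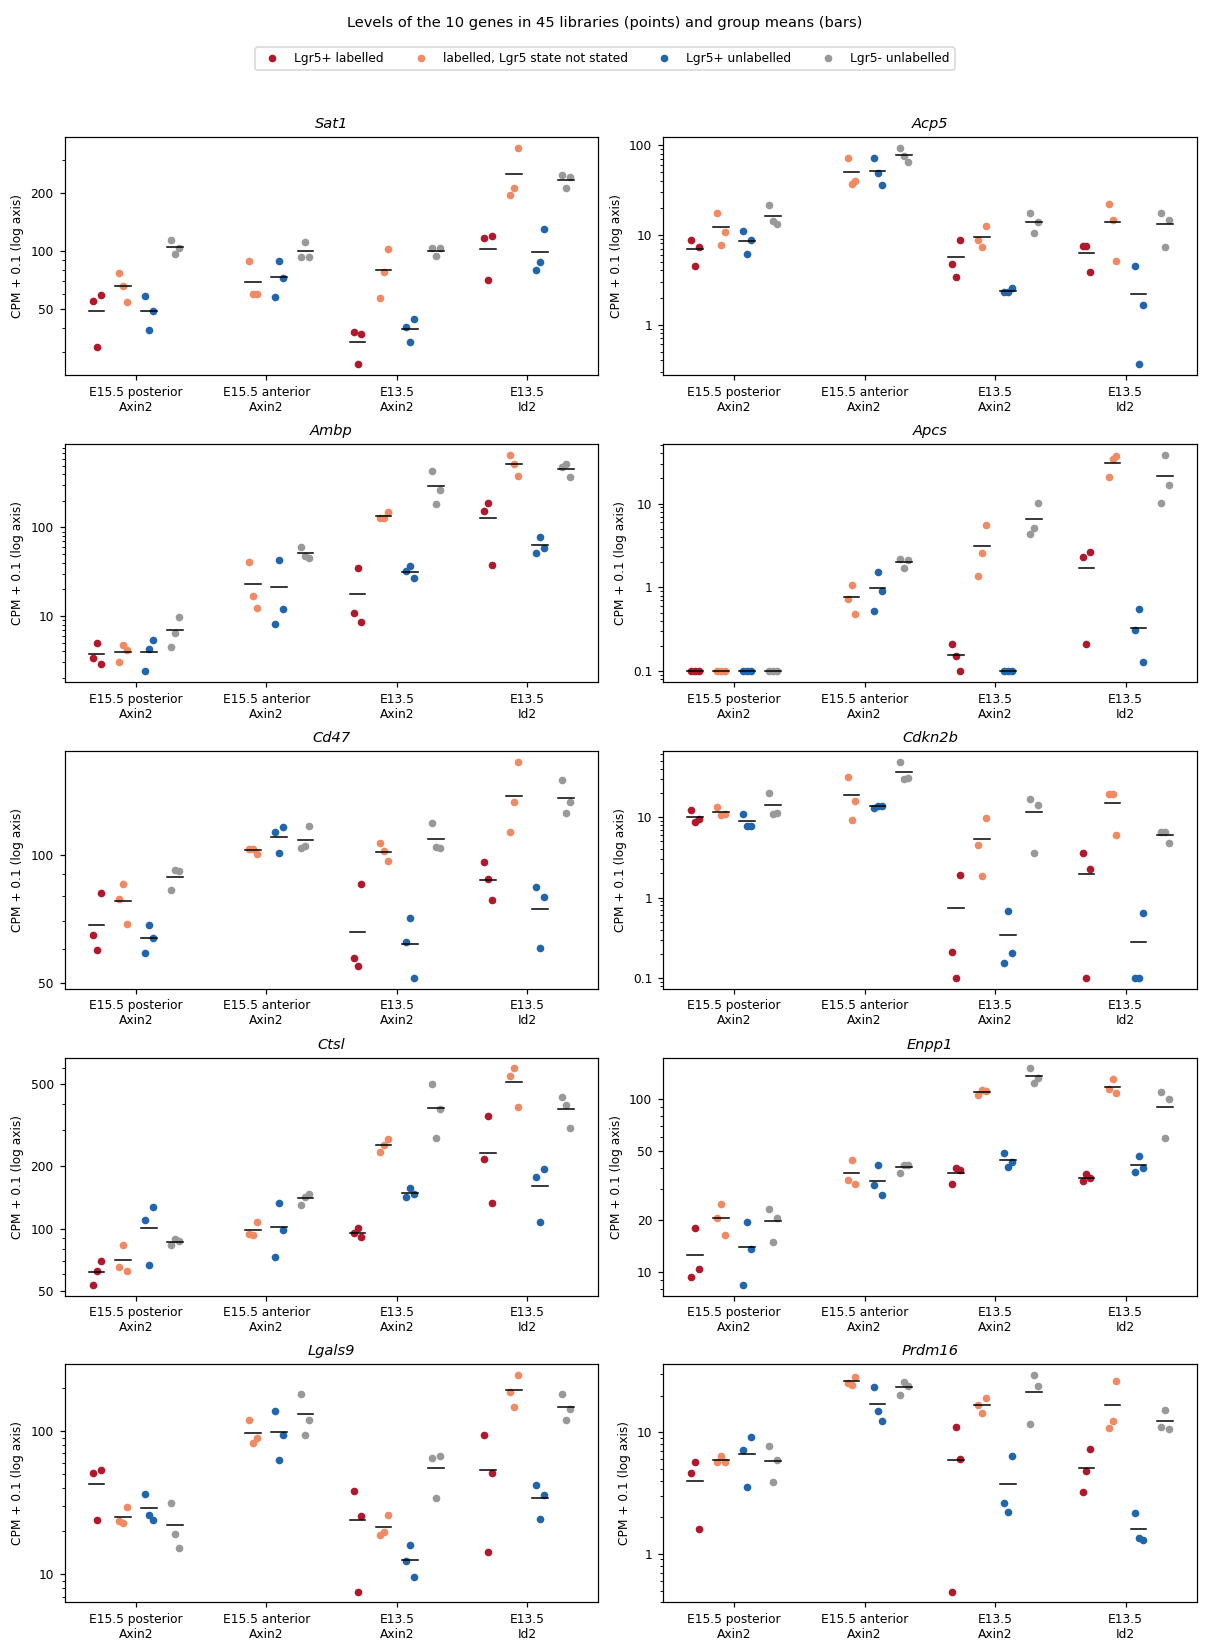
Level of each of the 10 genes in every library (points, CPM + 0.1 on a log axis) with the mean of each group of 3 libraries (bars), by sorted population within each stage, gut part and cohort. The Apcs points of all 12 posterior libraries lie at 0 CPM, and the Cdkn2b points of the E13.5 Lgr5-positive libraries lie at or below 3.45 CPM.

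Within labelled cells at E13.5, Ambp, Apcs, Ctsl, Sat1 and Enpp1 were lower in Lgr5-positive cells than in the labelled population of unstated Lgr5 state, in both cohorts. In the Axin2 cohort 5 of the 10 genes were called lower and none higher, where 1.03% of all genes tested were called lower. In the Id2 cohort 6 were called lower and none higher, against 0.535% of all genes. Beside the 5 genes called in each, Lgals9 was called in the Id2 cohort. The median log2 difference of the 10 genes was -1.51 in the Axin2 cohort and -1.73 in the Id2 cohort, beside medians of -0.01 and 0.05 over all genes tested. The choice compared none of these libraries. In the fit, however, they shared 1 estimate of the spread per gene with the libraries that decided the choice.

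Among the plasma protein genes, Ambp had 10.7, 34.5 and 8.37 CPM in Lgr5-positive labelled cells of the Axin2 cohort, against 127, 128 and 149 CPM in labelled cells. Ambp in the Id2 cohort had 154, 187 and 37.9 CPM in Lgr5-positive labelled cells and 660.4, 527 and 386 CPM in labelled cells. The groups did not overlap in either cohort, and the log2 differences were -2.97 ± 0.53 (SE, n = 3 each, adjusted p = 0.00285) and -2.03 ± 0.51 (adjusted p = 0.035). Apcs was at 0.112, 0.0532 and 0 CPM in Lgr5-positive labelled cells and 1.29, 2.44 and 5.40 CPM in labelled cells of the Axin2 cohort. Its levels in the Id2 cohort were 2.18, 0.108 and 2.58 CPM in Lgr5-positive labelled cells and 20.9, 33.6 and 37.1 CPM in labelled cells. Every Lgr5-positive library was below every other one, by -5.67 ± 1.11 (adjusted p = 0.00818) and -4.23 ± 0.93 (adjusted p = 0.0201) on the log2 scale. The sum of 15 hepatocyte markers was also smaller in Lgr5-positive cells. It was 460 to 549.7 CPM in Lgr5-positive labelled cells and 964 to 1112 CPM in labelled cells of the Axin2 cohort, and in the Id2 cohort 742 to 1252 CPM in Lgr5-positive labelled and 2053 to 2322 CPM in labelled cells. Rbp4, Ttr and Afp were called lower in the Axin2 cohort and Rbp4 in the Id2 cohort, all 3 of them plasma carrier or fetal serum proteins, whereas Alb did not exceed 2.23 CPM in any library. The part of these markers in the Ambp and Apcs differences was not tested.

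Of the degradative enzymes, Ctsl had 95.5, 101 and 90.5 CPM in Lgr5-positive labelled cells and 234, 253 and 273 CPM in labelled cells of the Axin2 cohort. The Id2 cohort gave 218, 349 and 133 CPM in Lgr5-positive labelled cells and 549.7, 596 and 388 CPM in labelled cells. Ctsl thus did not overlap between the populations, at -1.44 ± 0.26 (adjusted p = 0.00293) and -1.12 ± 0.26 (adjusted p = 0.0206). Sat1, the polyamine acetyltransferase, was at 37.9, 25.7 and 37.2 CPM in Lgr5-positive labelled cells and 57.4, 78.0 and 103 CPM in labelled cells of the Axin2 cohort. Sat1 in the Id2 cohort was at 118, 70.9 and 121 CPM in Lgr5-positive labelled cells and 197, 212 and 344 CPM in labelled cells. The Sat1 libraries did not overlap in either cohort, and the differences were -1.27 ± 0.27 (adjusted p = 0.0123) and -1.28 ± 0.27 (adjusted p = 0.0103). Enpp1 gave the smallest adjusted p-values of the 10. Its levels were 32.3, 40.0 and 38.6 CPM in Lgr5-positive labelled cells and 105, 112 and 112 CPM in labelled cells of the Axin2 cohort, and 33.4, 36.9 and 34.6 CPM in Lgr5-positive labelled cells and 114, 129 and 107 CPM in labelled cells of the Id2 cohort. The populations were far apart beside the spread of their 3 libraries, and the log2 differences were -1.60 ± 0.25 (adjusted p = 0.000446) and -1.73 ± 0.25 (adjusted p = 0.000155).

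Of the 10 genes, Lgals9 had the largest difference between the 2 cohorts' gate effects. In the Id2 cohort it had 93.8, 14.3 and 50.9 CPM in Lgr5-positive labelled cells and 188, 146 and 245 CPM in labelled cells (-1.86 ± 0.46 log2, adjusted p = 0.0319). In the Axin2 cohort it had 38.0, 7.50 and 25.6 CPM in Lgr5-positive labelled cells and 18.6, 19.8 and 25.8 CPM in labelled cells, with overlapping libraries and a difference of 0.12 ± 0.45 (adjusted p = 0.927). The difference between the 2 gate effects, Id2 minus Axin2, was -1.98 ± 0.64 (adjusted p = 0.126) and was not called in edgeR. It was called with DESeq2 (adjusted p = 0.048), and without replicate 2 of the Axin2 Lgr5-positive labelled cells (adjusted p = 0.0384) or replicate 1 of the Id2 Lgr5-positive labelled cells (adjusted p = 0.0388). None of the 10 genes was called in that comparison, where 0.342% of all genes were called, and it was added after the data had been seen. Lgals9 was the 1 of the 10 with an unadjusted p below 0.05 there, as were 2400 of all genes.

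The remaining genes were not called in edgeR in either cohort. Cd47 had 57.1, 54.8 and 85.5 CPM in Lgr5-positive labelled cells and 106, 102 and 96.8 CPM in labelled cells of the Axin2 cohort, and its difference of -0.65 ± 0.18 lay just beyond the threshold (adjusted p = 0.0537). The Id2 cohort gave Cd47 a difference of -0.65 ± 0.18 (adjusted p = 0.0561). Cdkn2b was at 0.112, 0 and 1.801 CPM in Lgr5-positive labelled cells and 4.34, 1.76 and 9.69 CPM in labelled cells of the Axin2 cohort. Cdkn2b in the Id2 cohort was at 3.45, 0 and 2.17 CPM in Lgr5-positive labelled cells and 19.4, 19.5 and 5.94 CPM in labelled cells. One Lgr5-positive library had no Cdkn2b read in each cohort, and the differences came to -3.04 ± 1.08 (adjusted p = 0.119) and -2.96 ± 1.03 (adjusted p = 0.151). For Prdm16 they were -1.57 ± 0.60 and -1.72 ± 0.60 (adjusted p = 0.141 and 0.148). Acp5 differed by -0.79 ± 0.53 and -1.10 ± 0.53 (adjusted p = 0.429 and 0.334). DESeq2 called 7 of the 10 genes in the Axin2 cohort, where it called 911 of all genes against 238 in edgeR, and 9 in the Id2 cohort, where it called 685 against 187. It added Cd47 (adjusted p = 0.0151 in the Axin2 and 0.00861 in the Id2 cohort) and Cdkn2b (adjusted p = 0.0365 and 0.0396) in both, and Prdm16 in the Id2 cohort (adjusted p = 0.0479).

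The calls in this gate also moved with single libraries. With a term for the replicate number, which paired the libraries of the Id2 cohort, Cd47 was called there as well (adjusted p = 0.0371). Without replicate 3 of the labelled cells, 3 of the 10 genes were called in the Axin2 cohort, Sat1 (adjusted p = 0.12) and Apcs (adjusted p = 0.0501) being lost, and Sat1 was also lost without replicate 2 of the Lgr5-positive labelled cells (adjusted p = 0.0522). Among Id2 libraries, 2 genes were called without replicate 2 of the labelled cells and 3 without replicate 2 or 3 of the Lgr5-positive labelled cells. Lgals9 was lost there without any of these 3 libraries or replicate 3 of the labelled cells, Ambp without replicate 1 or 2 of the labelled or replicate 3 of the Lgr5-positive labelled cells, and Sat1 without replicate 3 of the labelled or replicate 2 of the Lgr5-positive labelled cells. Apcs was lost without replicate 2 of the labelled (adjusted p = 0.0573) or replicate 2 of the Lgr5-positive labelled cells (adjusted p = 0.0629), and Ctsl without replicate 2 of the labelled (adjusted p = 0.15) or replicate 3 of the Lgr5-positive labelled cells (adjusted p = 0.0993). With no filter on low counts the Id2 cohort kept 4 of these calls, without Ambp (adjusted p = 0.078) and Lgals9 (adjusted p = 0.0586). Enpp1 remained called in both cohorts whichever library was left out. A fit on the Id2 libraries alone called none of the 10 and 0 of all genes there, and Enpp1 then had an adjusted p of 0.0781.

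Mesenchymal markers differed across this gate too, most clearly in the Id2 cohort. Their sum over 10 genes was 211 to 1574 CPM in Lgr5-positive labelled cells and 300 to 354.6 CPM in labelled cells of the Axin2 cohort. It was, in the Id2 cohort, 469.8 to 1390 CPM in Lgr5-positive labelled cells and 46.5 to 191.5 CPM in labelled cells, and Vim, an intermediate filament of mesenchyme, was called higher there (2.64 ± 0.40, adjusted p = 0.000254). Pancreas (Clps, Spink3) and enteroendocrine markers (Neurog3, Scgn) were called too, in differing directions. Clps (4.28 ± 1.15) and Neurog3 (6.49 ± 1.74) were higher in Lgr5-positive labelled cells of the Axin2 cohort. Their levels in these cells were 6.15 ± 6.38 and 13.2 ± 22.6 CPM (SD, n = 3), so single libraries differed widely. In Lgr5-positive labelled cells of the Id2 cohort Clps (-3.85 ± 0.93) and Scgn (-5.64 ± 1.37) were lower and Spink3 (2.32 ± 0.48) higher. Scgn was at 1.76 ± 3.05 CPM (SD, n = 3) in labelled cells of the Id2 cohort, again with an SD above the mean. The part of all these markers in the differences of the 10 genes was not tested.

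**Figure D2:**
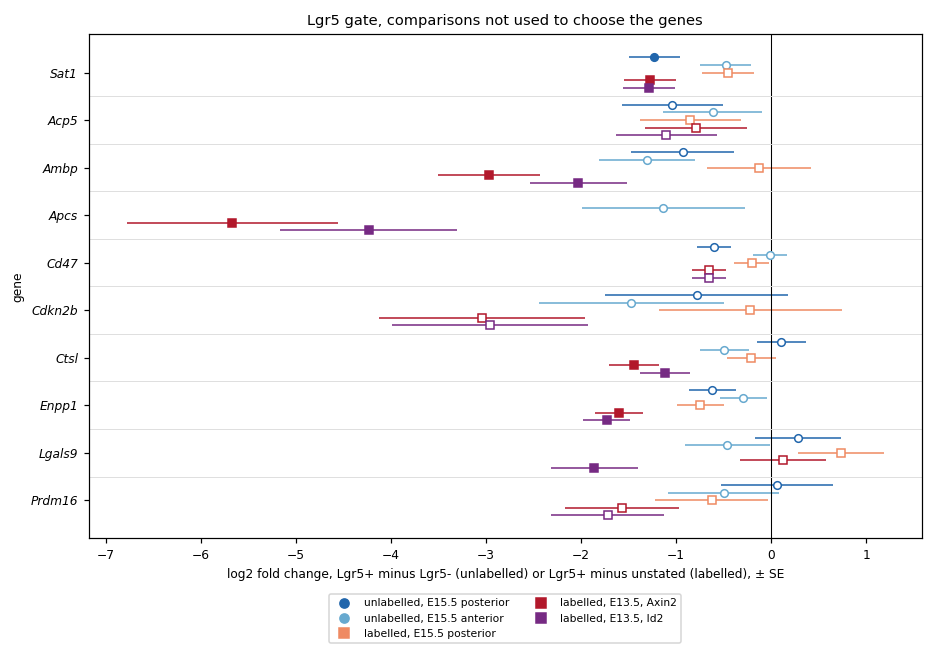
Log2 fold change (± SE) of the 10 genes for Lgr5-positive cells, against Lgr5-negative cells where unlabelled and against labelled cells of unstated Lgr5 state where labelled, in the 5 comparisons that the choice did not use. Filled marks passed an adjusted p of 0.05. Ambp, Apcs, Ctsl, Sat1 and Enpp1 are filled in both E13.5 comparisons, and at E15.5 only Sat1 in the posterior part is filled. Apcs has no mark in the posterior comparisons, where it had no read.

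At E15.5 the gate left few of these differences past the threshold. In the posterior part 1 of the 10 genes, Sat1, was called lower in Lgr5-positive than in Lgr5-negative unlabelled cells, where 0.0645% of all genes were called lower. Sat1 had 58.3, 39.0 and 48.8 CPM in Lgr5-positive and 115, 97.1 and 104 CPM in Lgr5-negative unlabelled cells of the posterior part, without overlap (-1.23 ± 0.27, adjusted p = 0.0278). Libraries of 3 genes, Sat1, Acp5 and Cd47, were all lower on the Lgr5-positive side, as were those of 9.08% of all genes. Acp5 had 10.8, 5.96 and 8.74 CPM in Lgr5-positive and 21.3, 14.2 and 12.95 CPM in Lgr5-negative cells (-1.04 ± 0.53, adjusted p = 0.355). Cd47 had 58.7, 68.3 and 63.6 CPM in Lgr5-positive and 82.4, 92.0 and 91.6 CPM in Lgr5-negative cells (-0.60 ± 0.18, adjusted p = 0.14). Ctsl, Lgals9 and Prdm16 had differences of 0.11 ± 0.26, 0.28 ± 0.45 and 0.07 ± 0.59. The median over the 9 genes with reads was -0.62, beside 0.12 over all genes, and 6 of the 9 lay below 0. Apcs had no read in any posterior library, so it could not be compared. In replicates 1 and 3 of these Lgr5-positive cells, where erythroid markers were high, Hbb-bh1 and Hbb-y were called higher with the gate. Without both libraries, an alternative added after the data had been seen, Sat1 differed by -1.54 ± 0.42, with 1 library left on that side. The Sat1 call was lost without replicate 1, 2 or 3 of the Lgr5-negative cells, or without replicate 2 or 3 of the Lgr5-positive cells, with adjusted p between 0.101 and 0.152. Over all genes, leaving out 1 library gave 7 to 49 calls in this gate, beside 61. DESeq2 called 2 of the 10 genes, with Cd47 added (adjusted p = 0.0364), and a fit on the Axin2 E15.5 libraries alone called 3, with Acp5 and Cd47. Over all genes these settings called 385 with DESeq2 and 2021 on the E15.5 libraries alone, beside 61. Markers of other cells also differed across this gate. Enteroendocrine markers summed to 269.5 to 1285 CPM in Lgr5-positive and 137.4 to 145.4 CPM in Lgr5-negative cells, and mesenchymal markers to 133.9 to 215.8 CPM in Lgr5-positive and 51.9 to 87.5 CPM in Lgr5-negative cells. Their part in the differences of the 10 genes was not tested.

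In the anterior part none of the 10 genes was called with edgeR, and 0% of all genes were called lower. DESeq2 also called none of the 10, and 42 of all genes. In edgeR 1 of the 10 (Ambp) and 207 of all genes had an unadjusted p below 0.05. All 10 log2 differences were below 0, that of Cd47 at -0.02 ± 0.18, with a median of -0.50 beside 0.00 over all genes. Libraries of 4 genes, Sat1, Ambp, Apcs and Cdkn2b, were all lower on the Lgr5-positive side, as were those of 4.33% of all genes. Ambp had 8.09, 43.1 and 11.9 CPM in Lgr5-positive and 60.8, 47.8 and 44.7 CPM in Lgr5-negative unlabelled cells (-1.31 ± 0.51, adjusted p = 1), so that 1 Lgr5-positive library stood close to the other population. Cdkn2b was at 12.9, 13.8 and 13.6 CPM in Lgr5-positive and 48.7, 29.5 and 30.9 CPM in Lgr5-negative cells (-1.47 ± 0.97, adjusted p = 1). Apcs was at 0.419, 1.43 and 0.800 CPM in Lgr5-positive and 2.10, 1.62 and 2.00 CPM in Lgr5-negative cells (-1.13 ± 0.85, adjusted p = 1). The difference between the posterior and the anterior gate effect was not called for any of the 10 (0.00645% of all genes were called). 707 of all genes had an unadjusted p below 0.05, as did Cd47 among the 10, and neither DESeq2 nor edgeR called one of the 10. Over all genes DESeq2 called 63. The difference was -0.75 ± 0.38 for Sat1 and -0.58 ± 0.25 for Cd47, posterior minus anterior.

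Between Lgr5-positive labelled and labelled cells of the posterior part at E15.5, none of the 10 was called with edgeR or DESeq2. Over all genes edgeR called 0% lower, and DESeq2 called 67 genes. The replicate block, which paired these libraries, called 0 of the 10 and 1 of all genes. Lgr5 itself had 51.9, 89.1 and 41.7 CPM in Lgr5-positive labelled cells and 29.7, 28.4 and 25.5 CPM in labelled cells, a difference of 1.09 ± 0.74 (adjusted p = 1), beside 2.75 ± 0.78 across the same gate at E13.5 in the Axin2 cohort (adjusted p = 0.0592). Enpp1 was the 1 gene of the 10 with an unadjusted p below 0.05, a level that 305 of all genes reached. It had 9.26, 17.9 and 10.3 CPM in Lgr5-positive labelled cells and 20.5, 24.5 and 16.1 CPM in labelled cells, of which the ranges overlap (-0.74 ± 0.25, adjusted p = 1). Set against the same gate at E13.5 in the Axin2 cohort, E15.5 minus E13.5, the change was not called for any of the 10, with 0.0387% of all genes called. 4 of the 10 and 1546 of all genes had an unadjusted p below 0.05. The change was 2.84 ± 0.75 for Ambp (adjusted p = 0.188) and 1.23 ± 0.37 for Ctsl (adjusted p = 0.226). For Ambp it was called with DESeq2 (adjusted p = 0.0104) and without replicate 2 of the E13.5 Lgr5-positive labelled cells (adjusted p = 0.0147). A gate effect called at E13.5 and not at E15.5 is thus not shown to differ between the stages for these genes in edgeR.

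Along the gut at E15.5, Ambp was lower in the posterior than in the anterior part in all 3 populations compared, and Apcs had reads in the anterior part alone. In Lgr5-positive unlabelled cells 5 of the 10 genes were called lower in the posterior part (0.232% of all genes were), namely Ambp, Apcs, Acp5, Enpp1 and Cd47. In Lgr5-negative unlabelled cells 3 were called lower (0.122% of all genes), namely Ambp, Apcs and Lgals9. In labelled cells of unstated Lgr5 state 1 was called lower, Ambp (0.0774% of all genes). None was called higher in any of the 3 populations. The median log2 differences of the 10 genes were -1.38 in Lgr5-positive, -1.67 in Lgr5-negative and -1.37 in labelled cells, beside 0.04, -0.06 and -0.01 over all genes tested in these populations, and are the same with Apcs at its bound.

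Apcs had no read in any of the 12 posterior libraries, Lgr5-positive labelled cells included, and reads in all 9 anterior ones. The anterior levels were 0.419, 1.43 and 0.800 CPM in Lgr5-positive unlabelled, 2.10, 1.62 and 2.00 CPM in Lgr5-negative unlabelled and 0.624, 0.964 and 0.387 CPM in labelled cells. Taking 3 reads over the posterior group as the floor, Apcs was at least 16.2-fold lower in Lgr5-positive cells (adjusted p = 0.0194), at least 31.7-fold lower in Lgr5-negative cells (adjusted p = 0.00482) and at least 12.0-fold lower in labelled cells, where the test was not passed (adjusted p = 0.0502). Ambp had 4.41, 6.24 and 9.62 CPM in posterior and 60.8, 47.8 and 44.7 CPM in anterior Lgr5-negative unlabelled cells. Among Lgr5-positive unlabelled cells it had 2.28, 4.08 and 5.19 CPM in the posterior and 8.09, 43.1 and 11.9 CPM in the anterior part, and among labelled cells 2.91, 4.55 and 4.07 CPM in the posterior and 40.4, 16.5 and 12.2 CPM in the anterior part. No posterior library reached the lowest anterior one of its population. The log2 differences were -2.89 ± 0.54 in Lgr5-negative (adjusted p = 0.00372), -2.52 ± 0.54 in Lgr5-positive (adjusted p = 0.0188) and -2.56 ± 0.54 in labelled cells (adjusted p = 0.0218). Hepatocyte markers summed to 575 to 645 CPM in posterior and 1087 to 1466 CPM in anterior Lgr5-negative cells, to 457 to 680 CPM in posterior and 442 to 1358 CPM in anterior Lgr5-positive cells, and to 448 to 658 CPM in posterior and 672 to 995 CPM in anterior labelled cells. None of the 13 hepatocyte genes tested was called in these comparisons, and the part of such RNA in the Ambp and Apcs differences was not tested. Pancreas markers summed to 85.9 to 105.1 CPM in posterior and 202.9 to 2679 CPM in anterior Lgr5-negative cells, to 114.9 to 121.2 CPM in posterior and 111 to 2494 CPM in anterior Lgr5-positive cells, and to 78.9 to 104.3 CPM in posterior and 277 to 2845 CPM in anterior labelled cells. None of them was called in these comparisons, and their part in the differences of the 10 genes was not tested.

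Acp5 had 10.8, 5.96 and 8.74 CPM in posterior and 70.6, 48.7 and 36.0 CPM in anterior Lgr5-positive unlabelled cells, a non-overlapping difference of -2.65 ± 0.56 (adjusted p = 0.0159). In Lgr5-negative and in labelled cells its differences were -2.23 ± 0.55 and -2.02 ± 0.54 and did not pass (adjusted p = 0.0592 and 0.135). Enpp1 was at 8.33, 19.4 and 13.54 CPM in posterior and 31.6, 41.3 and 27.6 CPM in anterior Lgr5-positive unlabelled cells (-1.34 ± 0.25, adjusted p = 0.00547). Cd47 differed less but with little spread, at 58.7, 68.3 and 63.6 CPM in the posterior and 113, 101 and 116 CPM in the anterior part (-0.84 ± 0.18, adjusted p = 0.0176). Lgals9 had 31.6, 19.0 and 15.2 CPM in posterior and 179.9, 94.4 and 119 CPM in anterior Lgr5-negative cells (-2.55 ± 0.47, adjusted p = 0.00364). Its libraries did not overlap in the other populations either, where the differences of -1.81 ± 0.46 in Lgr5-positive and -1.92 ± 0.46 in labelled cells did not pass (adjusted p = 0.0598 and 0.0644). Prdm16, Cdkn2b, Ctsl and Sat1 were not called in any population. Prdm16 stood at 5.66, 6.25 and 5.58 CPM in posterior and 25.5, 24.6 and 28.6 CPM in anterior labelled cells (-2.14 ± 0.61, adjusted p = 0.196), whereas Sat1 differed by -0.05 ± 0.27 there.

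These counts moved with single libraries and with the tool. Over all genes, leaving out 1 library gave 12 to 32 calls in labelled, 17 to 54 in Lgr5-positive and 28 to 37 in Lgr5-negative cells. The fit with all libraries gave 42, 76 and 51. In labelled cells, whose libraries were paired by replicate number, the replicate block called 3 of the 10 genes, adding Lgals9 (adjusted p = 0.00944) and Acp5 (adjusted p = 0.0187), and DESeq2 called 5. Over all genes the block called 113 and DESeq2 168, beside 42 in edgeR without a block. Without replicate 1 of the anterior or replicate 1, 2 or 3 of the posterior labelled cells none was called in that population. In Lgr5-positive cells the count was 0 without posterior replicate 1, 1 without posterior replicate 3, 2 without posterior replicate 2, and 3 without anterior replicate 1 or 2, and Cd47 was also lost without anterior replicate 3 (adjusted p = 0.0822). DESeq2 called 6 genes lower in the posterior Lgr5-negative cells, against 3 in edgeR, where it called 209 of all genes, against 51. It also called 6 in Lgr5-positive cells, adding Lgals9 (adjusted p = 0.00702), and 240 of all genes, against 76. Without the 2 posterior Lgr5-positive libraries with high erythroid markers, 1 library was left on the posterior side of the Lgr5-positive cells. Ambp then differed by -2.42 ± 0.86 and Acp5 by -3.16 ± 0.92 in this population. In Lgr5-negative cells the Ambp call was lost without posterior replicate 1 (adjusted p = 0.0565), and that of Lgals9 without posterior replicate 3 (adjusted p = 0.062).

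**Figure D3:**
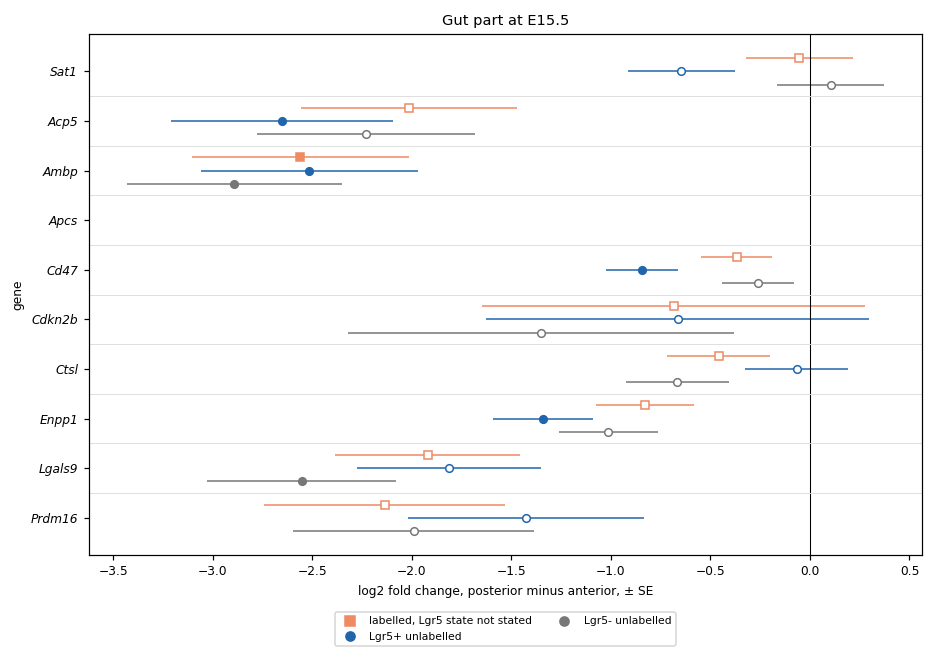
Log2 fold change (± SE) of the 10 genes, posterior minus anterior part of the gut at E15.5, in 3 sorted populations. Filled marks passed an adjusted p of 0.05, and Apcs is left out because it had no posterior read. Ambp is filled in all 3 populations, at -2.56, -2.52 and -2.89, and the marks of Sat1 lie between -0.65 and 0.10.

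The regional genes of the gut epithelium ran alongside. A list of 9 proximal gut genes summed to 93.5 to 107.7 CPM in posterior and 989.7 to 1144 CPM in anterior Lgr5-negative unlabelled cells, and 5 of its genes were called lower in posterior Lgr5-positive, 3 in posterior Lgr5-negative and 3 in posterior labelled cells. Onecut2 was among those in Lgr5-positive cells, with 0.444, 0.805 and 0.282 CPM in the posterior and 86.3, 36.7 and 44.2 CPM in the anterior part (-6.79 ± 1.37, adjusted p = 0.0143). Sfrp5, a secreted Wnt inhibitor, was at 0.536, 0.660 and 0.303 CPM in posterior and 364, 215 and 375 CPM in anterior Lgr5-negative cells (-9.27 ± 1.00, adjusted p = 1.14e-06). Of 7 distal gut genes, 4 were called higher in posterior Lgr5-positive, 4 in posterior Lgr5-negative and 3 in posterior labelled cells. Vim was called higher in posterior Lgr5-positive (1.70 ± 0.39) and Lgr5-negative cells (2.60 ± 0.41). Genes of the same lists were called with the gate at E13.5. Proximal genes summed to 27.1 to 232.6 CPM in Lgr5-positive labelled and 303 to 440.5 CPM in labelled cells of the Axin2 cohort. Sfrp5 and Gata4, which encodes a GATA factor of the proximal intestine, were called lower there (-6.82 ± 0.88 and -2.30 ± 0.60) and in the Id2 cohort (-3.06 ± 0.70 and -2.80 ± 0.61). Cdx1, a caudal transcription factor, was called higher in both cohorts (3.19 ± 0.74 in the Axin2 and 3.00 ± 0.74 in the Id2 cohort), with Osr2 and Lin7a in the Id2 cohort. The E13.5 gut was not divided into parts, so the gate and the gut region cannot be told apart there for these 10 genes.

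**Figure D4:**
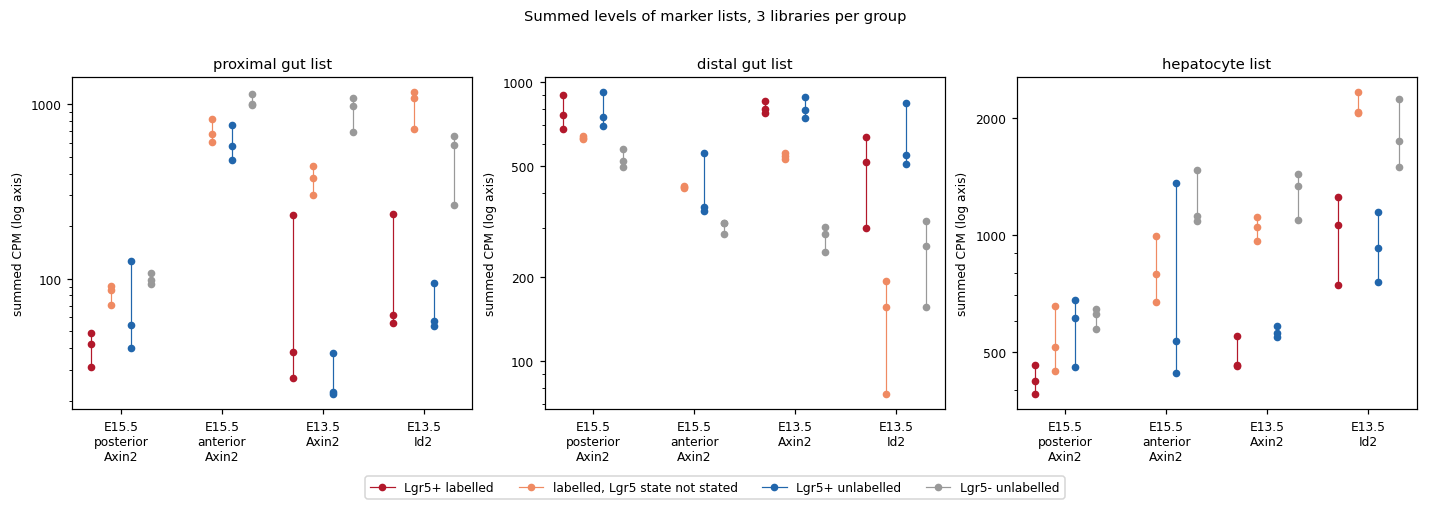
Summed CPM (log axis) of the proximal gut, distal gut and hepatocyte marker lists in each sorted population, with the lowest, middle and highest of 3 libraries joined by a line. Proximal genes sum to at most 126.7 CPM in the posterior libraries and at least 478.9 CPM in the anterior ones, and distal genes are higher in Lgr5-positive cells at E13.5 in both cohorts.

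Enpp1 and Ambp were lower at E15.5 than at E13.5 in all 3 stage comparisons of labelled cells in the Axin2 cohort. The E13.5 libraries came from the gut without a division into parts, so stage is compared with 1 part at a time, and the posterior and anterior comparisons share their E13.5 libraries. In posterior labelled cells 4 of the 10 genes were called lower at E15.5 and none higher, where 3.6% of all genes were called lower and 3.35% higher. In anterior labelled cells 3 were called lower and 2 higher, against 5.18% and 5.05% of all genes. In Lgr5-positive labelled cells, available for the posterior part only, 2 were called lower and 1 higher, against 6.21% and 8.36% of all genes. The median log2 differences of the 10 genes were -0.89 in posterior labelled, -0.06 in anterior labelled and -0.19 in Lgr5-positive labelled cells, beside -0.03, -0.01 and 0.00 over all genes.

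Enpp1 had 20.5, 24.5 and 16.1 CPM in posterior and 34.1, 44.5 and 32.3 CPM in anterior labelled cells at E15.5, against 105, 112 and 112 CPM in labelled cells at E13.5. The log2 differences, E15.5 minus E13.5, were -2.36 ± 0.26 (adjusted p = 1.07e-07) and -1.53 ± 0.25 (adjusted p = 3.86e-05). In Lgr5-positive labelled cells it had 9.26, 17.9 and 10.3 CPM in the posterior part at E15.5 and 32.3, 40.0 and 38.6 CPM at E13.5 (-1.51 ± 0.25, adjusted p = 0.000167). No E15.5 library of Enpp1 reached an E13.5 library of its population. Ambp in labelled cells was at 2.91, 4.55 and 4.07 CPM in the posterior and 40.4, 16.5 and 12.2 CPM in the anterior part at E15.5, against 127, 128 and 149 CPM at E13.5 (-5.06 ± 0.60 and -2.50 ± 0.52, adjusted p = 6.1e-07 and 0.000984). In Lgr5-positive labelled cells Ambp fell to 3.22, 4.88 and 2.75 CPM at E15.5, against 10.7, 34.5 and 8.37 CPM at E13.5 (-2.22 ± 0.54, adjusted p = 0.00607). The Ambp call in Lgr5-positive labelled cells was lost without replicate 2 of the E13.5 cells (adjusted p = 0.107). Ctsl in labelled cells fell to 64.7, 83.4 and 61.9 CPM in the posterior and 93.7, 93.1 and 108 CPM in the anterior part, against 234, 253 and 273 CPM at E13.5 (-1.79 ± 0.27 and -1.33 ± 0.26, adjusted p = 1.8e-05 and 0.000463). Apcs was at least 54.3-fold lower in posterior labelled cells at E15.5, where it had no read (adjusted p = 0.000233). In the anterior part it had 0.624, 0.964 and 0.387 CPM at E15.5 and 1.29, 2.44 and 5.40 CPM at E13.5 (-2.16 ± 0.88, adjusted p = 0.126).

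Acp5, Lgals9 and Cdkn2b were higher at E15.5 in 1 comparison each. Acp5 rose to 71.8, 36.8 and 39.3 CPM in anterior labelled cells at E15.5, against 8.62, 7.26 and 12.4 CPM at E13.5, without overlap (2.43 ± 0.55, adjusted p = 0.00242). Lgals9 rose to 119.6, 82.9 and 90.0 CPM there, against 18.6, 19.8 and 25.8 CPM at E13.5 (2.23 ± 0.47, adjusted p = 0.00106). In the posterior part neither was called, with differences of 0.41 ± 0.53 for Acp5 and 0.31 ± 0.45 for Lgals9. Cdkn2b was the gene called higher in Lgr5-positive labelled cells, at 12.2, 8.57 and 9.34 CPM in the posterior part at E15.5, against 0.112, 0 and 1.801 CPM at E13.5 (4.01 ± 1.12, adjusted p = 0.0139). Its call was lost without replicate 1 (adjusted p = 0.0781) or replicate 2 (adjusted p = 0.0604) of the E13.5 cells, and without replicate 2 the count over the 10 genes was 1. Over all genes, leaving out 1 library gave 924 to 3441 calls in this comparison, beside 2260. Prdm16, Sat1 and Cd47 were not called in any stage comparison, except Sat1 in Lgr5-positive labelled cells without replicate 2 of the E15.5 cells (adjusted p = 0.0321). Prdm16 in labelled cells differed by -1.45 ± 0.60 in the posterior and 0.68 ± 0.58 in the anterior part, and Sat1 by -0.21 ± 0.27 and -0.15 ± 0.27. An E15.5 library comes from 1 embryo and an E13.5 library from 3, which cannot be told apart from stage. Among hepatocyte markers 2 were called lower at E15.5 in posterior labelled and 4 in anterior labelled cells, Rbp4 in both (-2.79 ± 0.47 and -3.67 ± 0.49), and their part in the Ambp difference was not tested. Mesenchymal markers summed to 57.8 to 91.8 CPM in posterior and 36.6 to 60.9 CPM in anterior labelled cells at E15.5, against 299.6 to 354.6 CPM in labelled cells at E13.5. In Lgr5-positive labelled cells their sum was 90.9 to 127.4 CPM at E15.5 and 211 to 1574 CPM at E13.5. Vim was called lower at E15.5 in posterior (-2.02 ± 0.39) and anterior labelled cells (-3.21 ± 0.41) and in Lgr5-positive labelled cells, where Col3a1, a fibrillar collagen, was called lower too (-7.30 ± 1.54). The part of mesenchymal RNA in the stage differences of the 10 genes was not tested.

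**Figure D5:**
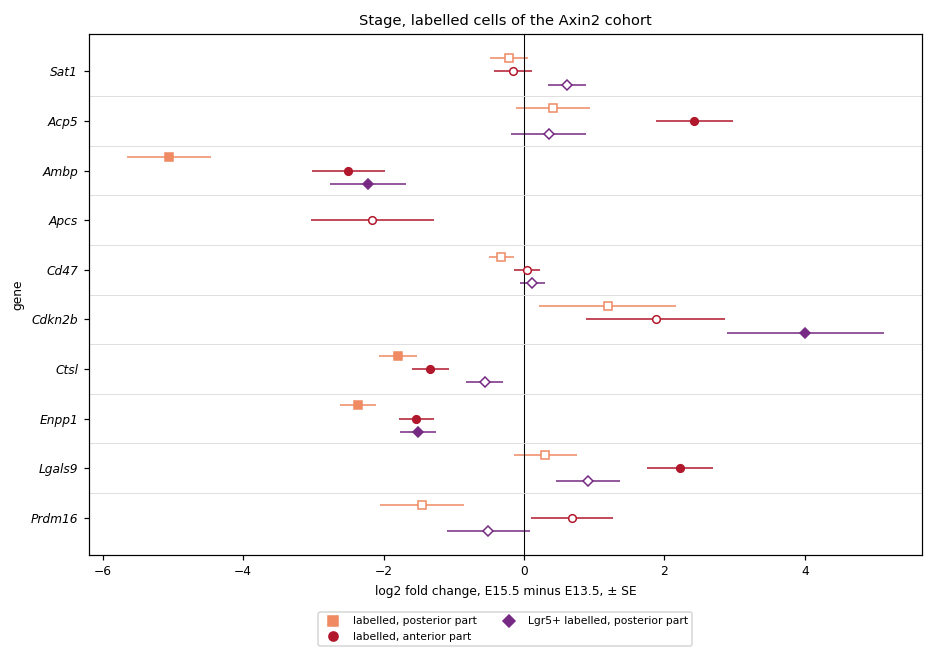
Log2 fold change (± SE) of the 10 genes, E15.5 minus E13.5, in labelled cells of the Axin2 cohort (posterior and anterior part) and in Lgr5-positive labelled cells (posterior part). Filled marks passed an adjusted p of 0.05. Enpp1 and Ambp are filled and below 0 in all 3 comparisons, and Acp5 and Lgals9 are filled and above 0 in the anterior part. Apcs has a mark in the anterior part alone, because it had no read in the posterior part.

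For the 10 genes the lineage label made no difference that passed the test at E15.5. Between labelled cells of unstated Lgr5 state and Lgr5-negative unlabelled cells, none of the 10 was called in the posterior part (0% of all genes) or in the anterior part (0%). Between labelled and unlabelled Lgr5-positive cells of the posterior part none was called either (0%). DESeq2 called none of the 10 in these 3 comparisons, and 70, 31 and 56 of all genes in this order. The replicate block, which paired the libraries in the anterior part and within Lgr5-positive cells, called 0 of the 10 and 0 of all genes in both. Unadjusted p-values below 0.05 were reached by 1 of the 10 and 385 of all genes in the posterior part, 3 and 133 in the anterior part, and 1 and 371 within Lgr5-positive cells. Sat1 had 77.4, 66.0 and 54.2 CPM in labelled and 115, 97.1 and 104 CPM in Lgr5-negative unlabelled cells of the posterior part (-0.73 ± 0.27, adjusted p = 1), which did not overlap. In the anterior part Sat1, Ambp and Ctsl were the 3 genes with an unadjusted p below 0.05, at -0.57 ± 0.27, -1.19 ± 0.50 and -0.57 ± 0.26. Within Lgr5-positive cells Ctsl was at 53.3, 61.9 and 69.8 CPM in labelled and 109.7, 66.2 and 127 CPM in unlabelled cells of the posterior part (-0.67 ± 0.26, adjusted p = 1).

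The label comparisons at E13.5 share libraries with the choice of the genes and are given as values only. Labelled minus Lgr5-negative unlabelled cells gave log2 differences below 0 for all 10 genes in the Axin2 cohort, between -1.41 for Lgals9 and -0.13 for Cd47. The same difference was above 0 for all 10 in the Id2 cohort, between 0.04 for Cd47 and 1.36 for Cdkn2b. Among Lgr5-positive cells, labelled minus unlabelled, Acp5 stood at 1.25 in the Axin2 and 1.57 in the Id2 cohort, and Cdkn2b at 1.39 and 3.27. Prdm16, in the Id2 cohort, had 3.12, 4.70 and 7.24 CPM in labelled and 2.07, 1.26 and 1.21 CPM in unlabelled Lgr5-positive cells.

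Over all 15 groups the 10 genes did not share one order. Group means of Sat1, Ambp, Apcs, Cd47, Ctsl and Lgals9 were highest in Id2-labelled cells at E13.5, reaching 251 CPM for Sat1, 524 CPM for Ambp and 30.5 CPM for Apcs. Acp5 and Cdkn2b were highest in anterior Lgr5-negative unlabelled cells at E15.5, at 77.2 and 36.4 CPM. Enpp1 was highest in Lgr5-negative unlabelled cells of the Axin2 cohort at E13.5, at 134.7 CPM, and Prdm16 in anterior labelled cells, at 26.2 CPM. Neighbouring groups in these orders seldom separated. Of 14 neighbouring pairs per gene, those whose libraries did not overlap numbered 3 for Cd47, 2 each for Acp5, Ambp, Ctsl, Enpp1, Lgals9 and Prdm16, 1 each for Sat1 and Cdkn2b, and 0 for Apcs. Apcs had reads in 29 of the 45 libraries and Cdkn2b in 41, whereas the other 8 genes had reads in every library.

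Correlations of the group means (log2 CPM, 15 groups, which share libraries' depth and stage) describe which genes ran together. Over the 45 pairs among the 10 genes Pearson's r had a median of 0.66 and ran between -0.08 and 0.97, with 41 pairs above 0. The E13.5 unlabelled groups that decided the choice are among the 15, so values above 0 were partly set by the choice. Tmem27, Cmtm8 and Lgals3bp, named below, were themselves called lower in both comparisons of the choice. The 3 most alike among 8895 other genes were Clu, Kynu and Nceh1 for Ambp (0.98, 0.97 and 0.97), and Tmem27, Arl14 and Dlk1 for Apcs (0.97, 0.94 and 0.92). For Ctsl they were Clu, Afp and Nceh1 (0.96, 0.95 and 0.95), for Sat1 Degs1, Coq10b and Ccdc68 (0.97, 0.96 and 0.96), and for Enpp1 Crot, Dhrs1 and Nfkbiz (0.97, 0.94 and 0.93). Acp5 ran with Alpi, the intestinal alkaline phosphatase of the brush border, and with Lgals3bp and Ghr (0.94, 0.92 and 0.92). Cdkn2b had Lgals3bp, Tfec and Fzd5 (0.95, 0.93 and 0.92), and Cd47 had Tmem27, Cmtm8 and Onecut2 (0.94, 0.94 and 0.93). Prdm16 had Uck2, Skap2 and Tfcp2l1 (0.90, 0.89 and 0.89), and Lgals9 had Mllt3, Serpina1e and Tspo (0.89, 0.87 and 0.86). Prdm16 overlaps the long noncoding RNA gene 5930403L14Rik, which was counted in these tables too. Other noncoding genes that were not counted overlap Prdm16 (Gm52688, Gm13133 and Gm52689), Cdkn2b (Gm12610) and Cd47 (Gm4633). Since the strand setting is not given in the sources used here, reads of overlapping genes cannot be told apart.

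Few genes of the same pathways passed the test in the labelled gate at E13.5. Of 11 tested genes of polyamine metabolism, the pathway of Sat1, none was called in either labelled gate at E13.5, and Srm, spermidine synthase, was the 1 called in a stage comparison, higher in Lgr5-positive labelled cells (0.63 ± 0.18, adjusted p = 0.0173). Of 28 lysosomal genes beside Ctsl and Acp5, 1 was called in the gate, Neu1, a sialidase, which was higher in Lgr5-positive labelled cells of the Id2 cohort (1.75 ± 0.29, adjusted p = 0.000498). With stage, Lipa, the lysosomal acid lipase, fell at E15.5 in posterior labelled cells (-2.03 ± 0.38), while the proteases Ctsb and Ctsc rose there (1.01 ± 0.24 and 1.25 ± 0.29). Of 6 tested genes for bikunin heavy chains and other pentraxins, Crp, C-reactive protein, was called lower in Lgr5-positive labelled cells of the Id2 cohort (-4.12 ± 1.04, adjusted p = 0.0359) and at E15.5 in posterior labelled cells (-3.96 ± 1.07, adjusted p = 0.0163). Itih2, a heavy chain that bikunin is joined to, was called higher at E15.5 in Lgr5-positive labelled cells (adjusted p = 0.0495), at 1.49 ± 1.41 CPM, against no read at E13.5 (SD, n = 3 each). Of 12 tested galectins and partners of Cd47 and galectin-9, Lgals3bp, a galectin-binding glycoprotein, was called lower in the Id2 gate (-1.22 ± 0.32), and Lgals4, a galectin of the digestive tract, rose with stage in posterior labelled cells (2.89 ± 0.35, adjusted p = 1.06e-06). Lgals3bp was called higher at E15.5 in posterior (1.22 ± 0.32) and anterior labelled cells (1.94 ± 0.33).

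Of 13 enzymes and transporters of pyrophosphate and extracellular nucleotides, the pathway of Enpp1, none was called in the gate. In every stage comparison 3 of them fell at E15.5, Alpl, the tissue-nonspecific alkaline phosphatase that splits pyrophosphate, Enpp2, which makes lysophosphatidic acid, and Slc20a1, a phosphate transporter. In posterior labelled cells their log2 differences were -3.11 ± 0.48, -3.43 ± 0.77 and -1.52 ± 0.42 (adjusted p = 3.61e-05, 0.00316 and 0.0195). All 3 were thus lower at E15.5, as Enpp1 was. Of 10 tested CDK inhibitors and D cyclins, Cdkn1b was called lower in Lgr5-positive labelled cells of the Axin2 cohort at a low level (-2.40 ± 0.65, adjusted p = 0.0498). Ccnd2, a D cyclin, rose with stage in posterior labelled cells (0.69 ± 0.20) and in Lgr5-positive labelled cells (0.79 ± 0.20). Cdkn1a, which encodes the inhibitor p21, was called higher at E15.5 in anterior labelled (1.09 ± 0.30, adjusted p = 0.0141) and Lgr5-positive labelled cells (adjusted p = 0.0105), and Cdkn1b in Lgr5-positive labelled cells (2.77 ± 0.66). Cdkn2a, the neighbour of Cdkn2b, did not exceed 0.314 CPM in any library. Of 14 tested PRDM family genes and partners of Prdm16, Mecom, its closest relative, was called higher in Lgr5-positive labelled cells of the Axin2 cohort (1.89 ± 0.46, adjusted p = 0.0288). Between gut parts at E15.5, Mecom was called higher in posterior than in anterior Lgr5-positive unlabelled cells (2.00 ± 0.47, adjusted p = 0.0345). Sox10, of enteric neural crest, was the 1 marker of that lineage called, lower at E15.5 in Lgr5-positive labelled cells. Markers of gut epithelium summed to between 3490.2 and 10447.5 CPM, and 3 of its 8 genes were called higher at E15.5 in anterior, 2 in posterior and 4 in Lgr5-positive labelled cells. Endothelial markers (at most 22.0 CPM in sum) and stomach and oesophagus markers (at most 31.6 CPM) had no gene called in any comparison, and pancreas markers reached 5755 CPM in 1 Lgr5-negative unlabelled library of the Id2 cohort. Enteroendocrine markers, in the stage comparison in which Acp5 and Lgals9 rose, summed to 465.7 to 1477 CPM in anterior labelled cells at E15.5 and 2.14 to 2.59 CPM in labelled cells at E13.5. Scgn (6.76 ± 1.34) and Chgb (7.62 ± 1.49) of this list were also called higher in posterior labelled cells, where neither Acp5 nor Lgals9 was called. In Lgr5-positive labelled cells, where Cdkn2b rose, Scgn (9.67 ± 1.43) and Chga (10.1 ± 1.81) were called higher. Clps, a pancreas marker, was called higher at E15.5 in every stage comparison. The part of these markers in the rises of Acp5, Lgals9 and Cdkn2b was not tested.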

How the data were processed

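Count tables with whole reads per gene were deposited by the authors, 1 per library, and contain no other measurement. Per the labels' protocols, 500 cells were sorted per library, polyadenylated RNA was amplified with the SMARTer v3.0 kit over 15 PCR cycles and sheared, and libraries were made with the Ovation Ultralow kit. The submitters' processing notes name build mm9 and the tools bcl2fastq 1.8.4, STAR 2.3.1z13, SAMtools 1.2, HTSeq 0.6.1p1 and DESeq2 1.14.1. Which gene models were counted, and whether by strand, is not given in the sources used here. The 5 closing rows of each table that name no gene held 23.9 to 29.4% of the reads of Axin2 libraries and 33.4 to 49.0% of those of Id2 libraries, and were left out of all totals.

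From these counts, all 45 libraries entered 1 fit of 15 group means with edgeR 4.0.16 in R 4.3.3 (TMM factors, filterByExpr with a minimum count of 10 and a minimum total of 15, robust quasi-likelihood test, prior count 2, 30 residual degrees of freedom). P-values were adjusted by Benjamini and Hochberg over the 15513 genes tested, and a gene was called at an adjusted p below 0.05. Each ± after a log2 difference is a standard error, and each group has 3 libraries. CPM values are plain, relative to each library's reads assigned to genes. A count of 0 allows up to 3 reads, which is 0.0795 to 0.182 CPM per library, and covers counting error only. Group labels came from the sample titles.

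The 10 genes and the 19 lists of related genes and cell type markers (218 of 220 genes in the tables) were chosen with earlier results of these data known. Named in each comparison were all 10 genes, Lgr5 and Epcam as checks, up to 3 called genes per list, and the 3 genes most alike by Pearson's r. Sfrp5, Onecut2, Gata4 and Cdkn2a were also followed by library as genes chosen after earlier values had been seen. Replicate numbers were checked for pairing on 9289 genes. Libraries of 1 number correlated above 0.1 in every pair for the labelled gate in the Id2 cohort (0.188 to 0.407) and in the posterior part (0.236 to 0.434), for the part comparison in labelled cells (0.335 to 0.408), and for the label comparisons with Lgr5-negative cells of the anterior gut (0.403 to 0.72) and within Lgr5-positive cells (0.1 to 0.566), where the block is given as a paired fit. Replicates of a group differed by more than sampling noise (chi-square per degree of freedom 14.3 to 346). Alternatives were DESeq2 1.42.0, no filter, a replicate block, only libraries of the same cohort and stage, and each library left out. In simulated data for the labelled gate of the Axin2 cohort, on 15175 genes, the fit recovered 26 of 100 genes changed 2-fold and 61 of 100 changed 4-fold, with 6 false calls.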

Additional observations from a re-analysis of the deposited data

How the results depend on the processing

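Of the values for single genes under settings other than leaving out 1 library, 805 kept their side of the threshold, 15 were no longer called and 37 became called. With 1 library left out, 1097 kept their side, 47 were no longer called and 8 became called. No called value changed sign in either set. The 2 stage comparisons of labelled cells kept 5 and 4 called genes under every setting run.

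DESeq2 called 2 of the 10 genes in the posterior unlabelled gate (1 in edgeR with all libraries), 7 in the Axin2 and 9 in the Id2 labelled gate (5 and 6 in edgeR), 5 in the part comparison of labelled cells (1 in edgeR), 6 in that of Lgr5-negative cells (3 in edgeR), 6 in that of Lgr5-positive cells (5 in edgeR), and 1 in the change of the labelled gate with stage and 1 in that between cohorts (0 in edgeR). Over all genes DESeq2 called, in the same order, 385, 911, 685, 168, 209, 240, 194 and 499. The edgeR fit with all libraries called 61, 238, 187, 42, 51, 76, 6 and 53. The replicate block called 8 in the labelled gate of the Axin2 cohort (5 without it), 3 in the part comparison of labelled cells (1 without it), 5 in that of Lgr5-negative cells (3 without it) and 1 in the difference between cohorts (0 without it). Over all genes the block called 1431, 113, 160 and 752 in this order, beside 238, 42, 51 and 53 without it. By the check, replicate numbers paired the libraries in the part comparison of labelled cells and in the Id2 labelled gate, and not in the other comparisons named here. A fit on libraries of the same cohort and stage called 3 in the posterior unlabelled gate, 0 in the Id2 labelled gate, 5 in the part comparison of labelled cells and 6 in that of Lgr5-negative cells. Over all genes that fit called 2021, 0, 233 and 439 in this order, beside 61, 187, 42 and 51. With no filter on low counts the part comparison of labelled cells had 0 and the Id2 labelled gate 4, and over all genes 33 and 128 were called. Without the 2 erythroid-high libraries, 1 posterior Lgr5-positive unlabelled library was left. Counts of calls in its gate and part comparisons are therefore not given. The causes were not tested.

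With 1 library left out, the calls ranged over 0 to 1 in the posterior unlabelled gate, 3 to 7 in the Axin2 and 2 to 7 in the Id2 labelled gate, 0 to 1, 0 to 4 and 2 to 3 in the part comparisons of labelled, Lgr5-positive and Lgr5-negative cells, 1 to 4 in the stage comparison of Lgr5-positive labelled cells, and 0 to 1 in both differences of labelled gates. Over all genes, leaving out 1 library gave 50 to 593 calls in the Axin2 and 74 to 664 in the Id2 labelled gate. The posterior unlabelled gate had 7 to 49. In the part comparisons these counts were 12 to 32 in labelled, 17 to 54 in Lgr5-positive and 28 to 37 in Lgr5-negative cells. The stage comparison of Lgr5-positive labelled cells had 924 to 3441. Counts over all genes moved by more than 1.5 times in many settings. The other settings gave 132 to 1431 in the Axin2 labelled gate beside 238, and 0 to 685 in the Id2 labelled gate beside 187. In the posterior unlabelled gate they gave 46 to 2021 beside 61, with the erythroid-high libraries kept. With 3 libraries a group, Apcs and Cdkn2b were among the genes with the widest errors. Both had libraries without a read, and the cause of the wide errors was not tested.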

Other observations

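Among the 21 genes called lower in Lgr5-positive unlabelled cells at E13.5 in both cohorts, 11 are not among the 10. These are values from the comparison that made the choice, and support nothing. The log2 difference of Sfrp5, a secreted Wnt inhibitor, was -9.13 in the Axin2 and -4.65 in the Id2 cohort. Those of the noncoding RNA gene 5930403L14Rik, which overlaps Prdm16, were -5.39 and -7.52. St8sia3, a sialyltransferase, stood at -6.97 and -5.59, Tm4sf4 at -5.50 and -3.55, Cmtm8 at -3.17 and -2.69, and Pamr1 at -2.89 and -3.38. Tmem27 had differences of -2.60 and -2.41, Lgals3bp of -2.21 and -1.99, Rem2 of -2.02 and -2.14, Tmprss2 of -1.77 and -1.84, and Homer2 of -1.16 and -1.08. The 5930403L14Rik RNA was at 0.743, 1.499 and 2.56 CPM in posterior and 5.20, 3.86 and 9.24 CPM in anterior labelled cells at E15.5, beside 5.66, 6.25 and 5.58 CPM of Prdm16 in the posterior and 25.5, 24.6 and 28.6 CPM in the anterior part.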
